A study of Mus musculus with 4 samples.

Results

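The Spsb family holds the genes Spsb1, Spsb2, Spsb3 and Spsb4. They were taken by symbol from the 24391 genes of one RNA-Seq count table, and all 4 were found. The family was chosen by the measured counts of Spsb4, which are higher after washout of the γ-secretase inhibitor, so the values of Spsb4 in this contrast are given as a description and without a test. Spsb1, Spsb2 and Spsb3 came in by name alone.

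Spsb proteins are the substrate receptors of a ubiquitin ligase. Their SPRY domain holds the target protein, and the SOCS box near the C-terminus binds the adaptor made of Elongin B and Elongin C, which links to the scaffold Cul5 and the RING protein Rnf7. The assembled ligase marks the bound protein with ubiquitin for destruction by the proteasome. Spsb1, Spsb2 and Spsb4 are best known for recognizing the inducible nitric oxide synthase Nos2, whereas Spsb3 has been tied to other targets, among them the transcription factor Snai1 and the DNA sensor cGAS.

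The experiment used Beko cells, mouse T-cell progenitors kept as a line, in which Notch signaling is constitutively active. DAPT, the γ-secretase inhibitor (GSI), prevents release of the active intracellular part of Notch. In the GSI group, cells were kept with DAPT for 48 h, with a change to fresh inhibitor at 24 h according to the methods. In the washout group, cells received the same 48 h of DAPT, were washed, and were cultured for another 24 h without it. The dose is 10 μg/ml in the methods and 10 mg/ml in the sample labels. Each group has 2 samples, all from the one cell line, and no label says that the samples came from separate cultures, so p-values measure the spread between these samples only. No sample was washed after the 48 h and then kept in inhibitor for another 24 h. Removal of the inhibitor therefore cannot be told apart from the last wash and the longer culture.

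Reads counted on genes came to between 13716199 and 36364200 per sample, and replicate 1 was the deeper one in both groups. All 12 markers examined for T-cell progenitors (such as Cd3e, Lck and Rag1) had more than 3 counts in every sample, with a summed level between 6094 and 6658 CPM (the count scaled to the library total and its TMM normalization factor). Within this sum single markers differed in both directions: Ptcra had 47.1 and 54.4 CPM under GSI against 248.5 and 275.7 CPM after washout, and Gata3 had 261.9 and 208.1 CPM against 75.8 and 71.7 CPM. Of the markers of other blood cells and of fibroblasts, Itgam, Cpa3, Kit and Gata1 were above 3 CPM under GSI and lower after washout. The summed level of 4 myeloid markers was 49.1 and 38.2 CPM under GSI and 5.49 and 4.91 CPM after washout, nearly all of it Itgam, and that of 5 mast cell markers was 274.4 and 166.6 CPM against 45.7 and 30.5 CPM. Of these lists, Lyz2, Fcer1a, Ms4a2, Tpsb2, Pax5, Ebf1 and Hbb-b1 were at 0 counts in every sample, whereas Cpa3 (175.6 and 77.4 CPM under GSI), Gata1 (10.6 and 9.11 CPM) and Klf1 (1.41 and 1.30 CPM) had reads. The summed level of the 4 B-cell markers was at most 0.548 CPM. The sums of 3 erythroid markers were 12.03 and 10.4 CPM against 4.99 and 4.39 CPM, and those of 3 fibroblast markers lay between 1.38 and 3.16 CPM. The part of these shifts in the results below was not tested. As a check of the labels, all 4 canonical Notch targets examined (Hes1, Dtx1, Hey1 and Nrarp) were upregulated past both thresholds after washout, although Hes1 lost its call with DESeq2 (adjusted p = 0.0732) and without GSI replicate 2. The GSI samples had 21.8 and 7.67 CPM of Hes1, and its log2 fold change ranged from 0.92 to 2.41 over the alternatives.

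The coding sequences show how the members are related. In the GENCODE vM1 models on mm9, Spsb1 and Spsb4 have the same coding length of 819 bases without the stop codon. They were identical at 72.1% of 821 aligned bases, and their longest shared run was 22 bases. Spsb2, with 792 coding bases, was identical to Spsb4 at 66.3% of 778 aligned bases. For Spsb3, whose longest listed model has 1500 coding bases, the value was 65.2% of 749 aligned bases. Across all pairs of members, no shared run exceeded the 22 bases of Spsb1 and Spsb4.

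The last 120 coding bases of Spsb4, stop codon included, are shown because they lie at the SOCS-box end of the protein that gives the family its name. The stretches of the other members that align with them follow. Capitals mark bases identical to Spsb4, whose own sequence is in lower case.
Spsb4: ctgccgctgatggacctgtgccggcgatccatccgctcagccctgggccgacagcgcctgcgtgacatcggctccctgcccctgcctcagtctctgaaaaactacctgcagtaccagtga
Spsb1: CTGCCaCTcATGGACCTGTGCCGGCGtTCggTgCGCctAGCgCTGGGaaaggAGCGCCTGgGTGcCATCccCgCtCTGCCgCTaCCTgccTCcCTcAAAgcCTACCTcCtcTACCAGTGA
Spsb2: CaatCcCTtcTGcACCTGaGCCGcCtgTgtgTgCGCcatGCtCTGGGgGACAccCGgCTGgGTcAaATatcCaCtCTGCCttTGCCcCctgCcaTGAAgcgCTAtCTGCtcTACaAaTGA
Spsb3: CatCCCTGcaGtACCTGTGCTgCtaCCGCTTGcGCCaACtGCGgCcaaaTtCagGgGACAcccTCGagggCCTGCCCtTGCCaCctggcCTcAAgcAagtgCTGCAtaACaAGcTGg
Spsb1 matched Spsb4 at 88 of the 120 bases and Spsb2 at 73. Spsb3 matched at 71 bases over an aligned stretch of 117 bases. The stretch shown for Spsb3 ends at base 1378, and its coding sequence runs on to base 1503.

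Spsb4 had the widest gap between the groups of all members. It had 9 and 11 counts in the GSI samples and 537 and 265 counts after washout. In CPM these were 0.281 and 0.754 under GSI against 15.8 and 19.7 after washout. Both washout samples lay far above both GSI samples, with the lowest washout value 20.9 times the highest GSI value. The mean was 0.517 ± 0.334 CPM under GSI and 17.7 ± 2.79 CPM after washout (SD, n = 2), a ratio of 34.3. The fitted log2 fold change was 5.29 with a standard error (SE) of 0.384, the 6th highest of 12266 genes tested. By the ratio of the lowest washout to the highest GSI value, Spsb4 ranked 2nd of the 12055 genes tested that had at least 3 counts in every sample. Both ranks come from the values that chose the family, so they describe Spsb4 and test nothing. The fold rests on 20 reads under GSI, whose 95% Poisson intervals (0.129 to 0.534 and 0.376 to 1.35 CPM) overlap, and these intervals cover counting error only. Without GSI replicate 1 the log2 fold change of Spsb4 was 4.53, and without GSI replicate 2 it was 5.96. Spsb4 passed the filter on low counts through its washout samples. In bulk RNA, fewer cells that express a gene and less RNA per cell cannot be told apart.

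Spsb4 lies on chromosome 9 from 96843901 to 96919262 on the minus strand (mm9). Its model has 3 exons separated by introns of 50870 and 21772 bases. According to the methods, the alignment allowed introns of at most 3000 bases, so reads spliced across either intron could not be placed as spliced reads. Both introns of Spsb1, of 47595 and 8074 bases, exceed this limit as well, while none of the introns of Spsb2 or Spsb3 does. The limit applied to all 4 samples, and its part in the levels was not tested. Spsb4 shares 650 exon bases (14.5% of its exons) with the lincRNA Gm16010 on the other strand, and the strand setting of the counting is not given in the sources used here.

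Spsb2 was low in every sample. It had 33 and 17 counts under GSI and 65 and 31 counts after washout, or 1.03 and 1.16 CPM against 1.91 and 2.31 CPM. The groups did not overlap, which held in this direction for 38.2% of all genes tested. The log2 fold change of Spsb2 was 0.93 (SE 0.317, adjusted p = 0.0473 by the edgeR quasi-likelihood test after Benjamini-Hochberg correction). This passed the adjusted p-value, as 27% of all genes tested did in this direction, but not the fold change threshold. After correction for GC content and exon length Spsb2 passed both thresholds, with a log2 fold change of 1.07 (adjusted p = 0.0229 from edgeR). The p-value of the reported fit was close to its threshold. With DESeq2 the adjusted p-value was 0.194, and total-count scaling gave a log2 fold change of 0.73 (adjusted p = 0.0921 from edgeR). Leaving out any one of the 4 samples also took the adjusted p-value of Spsb2 above the threshold, to between 0.123 and 0.231. Spsb2 lies on chromosome 6 from 124758679 to 124760637 (mm9). Its exons share 34 bases with those of Tpi1, a glycolytic enzyme gene on the other strand, which had 272.1 and 300.8 CPM under GSI and 451.9 and 632.8 CPM after washout. The log2 fold change of Tpi1, 0.92 (SE 0.175), was close to that of Spsb2, and its part in the Spsb2 value was not tested.

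Spsb3 was by far the most abundant member. It had 1607 and 809 counts under GSI and 1557 and 635 counts after washout, or 50.2 and 55.4 CPM against 45.7 and 47.2 CPM. The washout samples lay just below the GSI samples, without overlap, as did those of 39.1% of all genes tested. The log2 fold change of Spsb3 was -0.18 (SE 0.101, adjusted p = 0.174 by the edgeR quasi-likelihood test), which did not pass the test; 25.4% of all genes passed the adjusted p-value in this direction. Its direction depended on the processing: under total-count scaling it was -0.38 (adjusted p = 0.0188 from edgeR), and after correction for GC content and exon length it was 0.05 (adjusted p = 0.664). Total-count scaling moved the median of all genes by -0.199. Spsb3 lies on chromosome 17 from 25023588 to 25029097 (mm9). It shares 1694 exon bases (62.3% of its exons) with Eme2 on the other strand, a subunit of a DNA repair nuclease. Eme2 had 277 and 174 counts under GSI and 286 and 142 after washout, with a log2 fold change of -0.12 (SE 0.227).

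Spsb1 was near the limit of detection. It had 17 and 4 counts under GSI and 15 and 3 counts after washout, or 0.531 and 0.274 CPM against 0.441 and 0.223 CPM. The groups overlapped, and in each group replicate 1 was the higher. For comparison, 3 counts correspond to between 0.0881 and 0.223 CPM in the 4 samples. Spsb1 did not pass the filter on low counts. Without the filter the log2 fold change of Spsb1 was -0.21 (SE 0.708, adjusted p = 0.835 by the edgeR quasi-likelihood test), so a difference was not detectable at this depth. It lies on chromosome 4 from 149270392 to 149329152 (mm9).

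Of the 4 members, 3 could be tested, Spsb1 being too low. Spsb4, which chose the family, is left aside here. In the reported fit neither Spsb2 nor Spsb3 passed both thresholds of the study (adjusted p under 0.05 with an absolute log2 fold change over 1). Over all genes tested, 7.74% passed them upward and 11.7% downward, so that 39.8% of all calls were upward. With total-count scaling 23% of all calls were upward.

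**Figure D1:**
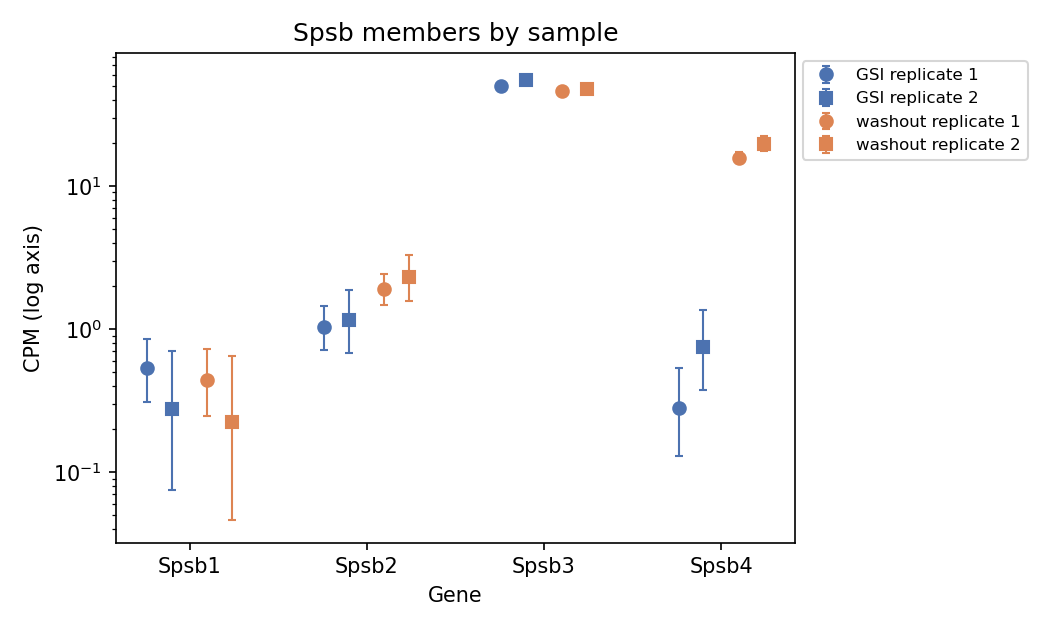
Level of each Spsb gene in each sample in CPM on a log axis, with GSI samples in blue and washout samples in orange, circles for replicate 1 and squares for replicate 2; bars are 95% Poisson intervals for counting error only. Spsb4 moves from 0.281 and 0.754 CPM under GSI to 15.8 and 19.7 CPM after washout, whereas the intervals of Spsb1 overlap in all samples.

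Levels of different genes were compared per length, as CPM per kilobase of exon. Under GSI, Spsb3 stood at 18.5 and 20.4 CPM per kilobase, followed by Spsb2 with 0.622 and 0.702. Spsb4 followed with 0.0627 and 0.168, and Spsb1 with 0.121 and 0.0623. Spsb4 and Spsb1 could not be ordered, as their values overlapped. Upon washout the order was Spsb3 (16.8 and 17.4 CPM per kilobase), Spsb4 (3.52 and 4.396), Spsb2 (1.15 and 1.39) and Spsb1 (0.1002 and 0.0508), with no overlap between neighbors in the order. Exon lengths came from GENCODE vM1 and were 4396, 1658, 2719 and 4484 bases for Spsb1 to Spsb4. They may differ from those of the iGenomes annotation on which the reads were counted.

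The summed level of the family was slightly higher in both washout samples than in both GSI samples, while its make-up moved more. Spsb3, most of the sum, ranged in log2 fold change from -0.38 to 0.05 over the alternatives, under which the sum was not recomputed. The sum over the 4 genes was 19.3 and 21.3 CPM per kilobase under GSI and 21.6 and 23.2 after washout. Spsb3 made up 95.8% and 95.6% of the sum under GSI and 77.9% and 74.8% after washout. The share of Spsb4 went from 0.325% and 0.788% to 16.3% and 18.9%. The joint share of Spsb1, Spsb2 and Spsb4, the members known for binding Nos2, went from 4.18% and 4.38% to 22.1% and 25.2%, and most of that was Spsb4. These shares follow from the Spsb4 values that chose the family and were not tested. Among the 14815 genes with a length and a count, Spsb4 lay above 19.8% and 24.8% of genes under GSI and above 47.0% and 49.8% after washout, close to the median of these genes.

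**Figure D2:**
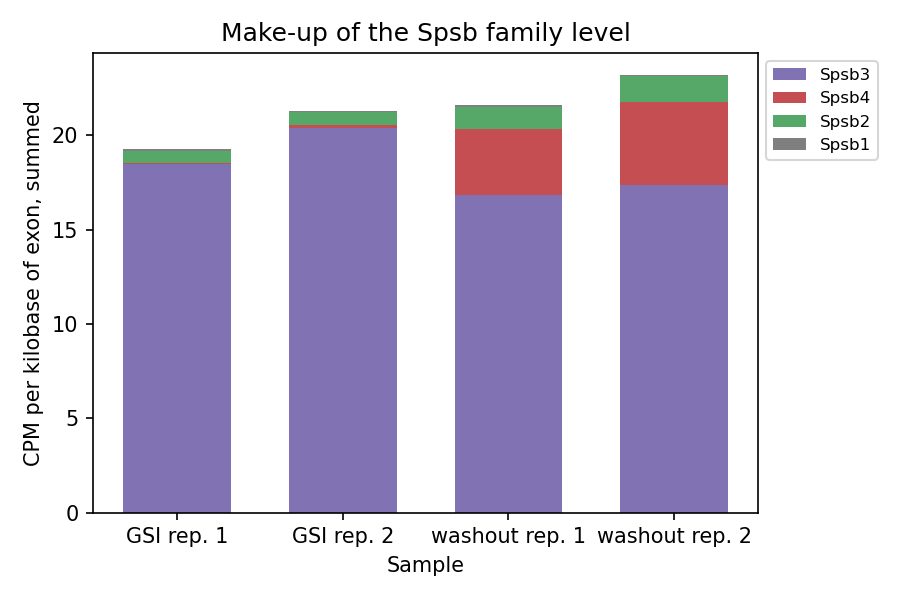
Stacked bars of CPM per kilobase of exon for Spsb3, Spsb4, Spsb2 and Spsb1 in each of the 4 samples. The total lies between 19.3 and 23.2 in every sample, while the Spsb4 segment is 0.0627 and 0.168 under GSI and 3.52 and 4.396 after washout.

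Genes around the members were examined to see whether a wider stretch of the chromosome moved with them. Spsb4 has few close neighbors. Upstream, Slc25a36, a mitochondrial pyrimidine nucleotide carrier gene, starts 92.3 kb away. It had 1965 and 804 counts under GSI against 1206 and 350 after washout, or a log2 difference of -0.91 (SE 0.162, adjusted p = 0.00467 by the edgeR quasi-likelihood test), the opposite direction to Spsb4. Downstream, Pxylp1, which starts 126.2 kb away, had a log2 fold change of -0.01 (SE 0.106). Beyond it, Zbtb38, a zinc finger gene at 266 kb, had -0.45 (SE 0.163, adjusted p = 0.0567 from the same test). Trim42, on the upstream side of Slc25a36, was at 0 counts in every sample. None of the neighbors of Spsb4 that could be tested was upregulated.

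Around Spsb2, leaving aside the overlapping Tpi1, both upstream neighbors were downregulated past both thresholds. Eno2, the neuronal enolase, had 146 and 74 counts under GSI and 28 and 15 after washout, or a log2 difference of -2.35. Lrrc23 fell from 34 and 21 counts to 9 and 3. Both lie on the strand opposite to Spsb2, 39 and 28.9 kb away. The downstream neighbors Usp5, a deubiquitinase gene, and Cdca3, a gene of mitotic entry, had log2 fold changes of 0.54 and 0.50, below the fold change threshold. Around Spsb3, the neighbors had values in both directions without passing the fold change threshold: Nubp2, whose start is 0.3 kb from that of Spsb3, had 0.76, Mrps34 had 0.74 and Mapk8ip3 had -0.70, while Igfals had -0.50 and did not pass the adjusted p-value. Of the neighbors of Spsb1, Tmem201 had 0.52 and H6pd had -0.36, while Gpr157 (2, 1, 0 and 0 counts) and Slc25a33 (0 counts in every sample) were too low to be tested.

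**Figure D3:**
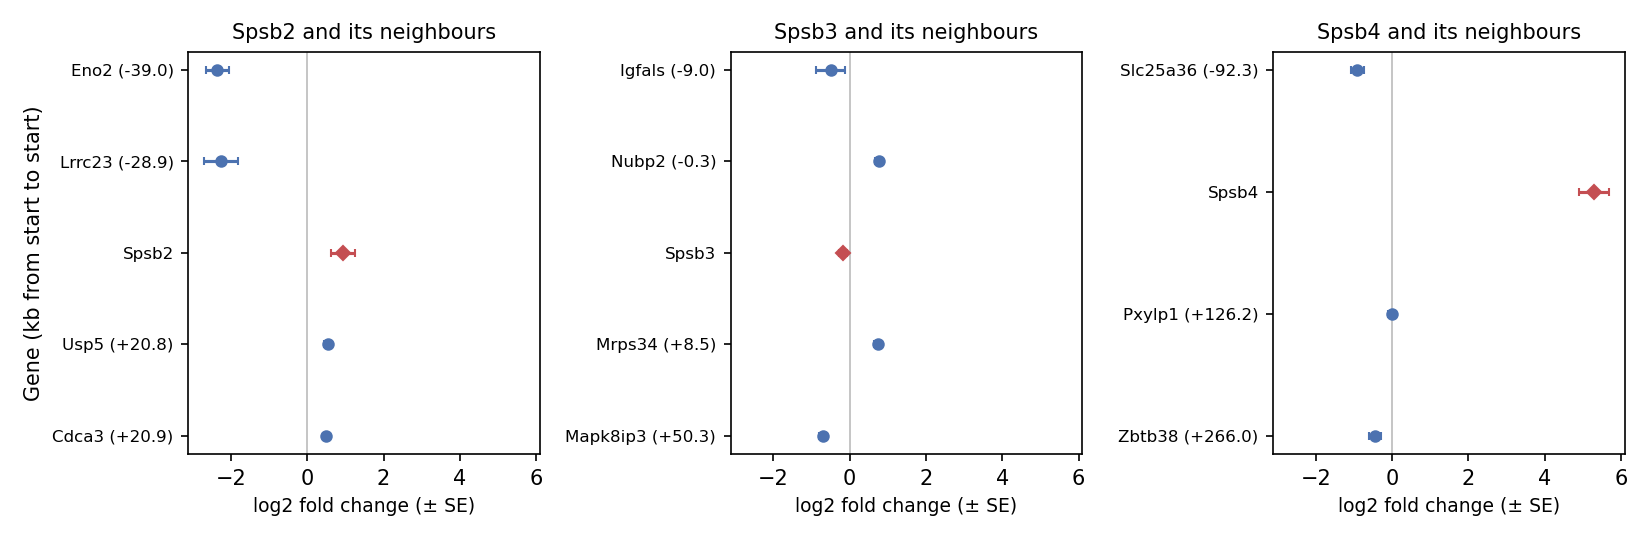
Log2 fold change (washout over GSI) and SE for Spsb2, Spsb3 and Spsb4 (red diamonds) and their nearest tested genes on each side (blue circles). Genes that overlap a member are left out. The order is that of transcription of the member from top to bottom, with the distance between starts in kb in brackets. Spsb4 stands at 5.29, and its neighbors lie between -0.91 and -0.01.

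RBPJ, the DNA-binding factor of Notch signaling, recognizes TGGGAA, and TGAGAA is a variant in which the third base is A. Both were searched on both strands in the promoter windows of RefSeq (GRCm38.p6), which run from 250 bases before to 50 bases after a gene start. TGGGAA occurs in 25.6% and TGAGAA in 20.2% of the 32851 windows of all genes. The window of Spsb4 holds no TGGGAA and a single TGAGAA, and that of Spsb1 likewise. Both windows of Spsb2 hold the same TGAGAA and no TGGGAA. Of the 4 windows of Spsb3, 1 holds both. The matches with their surroundings are shown in 30 bases each, 5′ to 3′ on the strand of the gene, with the match in capitals, since they let the members be compared at the same kind of position.
Spsb4, chr9:97018317-97018346, minus strand: cgcgccgctggtTGAGAAgcagcagccagc
Spsb1, chr4:149955005-149955034, minus strand: ggtggctttttcTTCTCAgcgcaggagtcg
Spsb2, chr6:124808773-124808802, plus strand: gtagccggtgggTTCTCAaggcggtaagtg
Spsb3, chr17:24885830-24885859, plus strand: cccgggttctggTGAGAAacaggagttggg
Spsb3, chr17:24885759-24885788, plus strand: gagatggtgcttTTCCCAacgccacccttt
The match in Spsb4 begins 21 bases after the start of the gene, that in Spsb1 16 bases before it. Over whole genes on mm9, the density of the motifs lay on both sides of that of the chromosome. TGGGAA occurs 105 times in the 75.4 kb of Spsb4, or 1.39 times per kb against 0.965 over chromosome 9, while TGAGAA occurs 64 times, or 0.849 per kb against 1.07. In Spsb1, TGGGAA has 1.12 per kb against 0.947 over chromosome 4, and TGAGAA has 1.055 against 1.079. The short genes hold few of either: Spsb2 has no TGGGAA and 4 TGAGAA, and Spsb3 has 3 and 2. Other letters searched were CACGTG, the E-box, found in 7.15% of windows but in none of Spsb1, Spsb2 and Spsb4, and GGGCGG, the GC box, found in 35.7% of windows and in at least 1 window of each member. Each motif was counted on its own. A match of 6 letters is a description of the sequence and not a binding site. The promoter windows leave out sequence far from gene starts, where the paper placed most RBPJ sites that lose binding under GSI. Measured RBPJ binding at the Spsb genes was not examined here.

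The genes whose profile over the 4 samples was nearest to that of Spsb4 were sought among all genes tested, by the Euclidean distance between centered log2 CPM. The nearest was 2700054A10Rik at a distance of 0.441, with 5 and 4 counts under GSI and 278 and 137 after washout. It was followed by Elovl3, a fatty acid elongase gene, at 0.938, with 3 and 3 counts against 109 and 66. Next came P2rx1, a purinergic receptor gene, at 1.19, with 66 and 44 counts against 1263 and 543. Pitx3, a homeobox gene, followed at 1.30 with 1 and 1 counts against 52 and 29, and Oprk1, the kappa opioid receptor gene, at 1.34 with 221 and 95 counts against 4087 and 1459. Elovl3 (chromosome 19 from 46206387 to 46210184) and Pitx3 (46210175 to 46222865) overlap on opposite strands, so that their reads are not certain to be separate. With 2 samples a group, this distance is set largely by the size of the difference between the groups.

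To act, a Spsb protein needs the ligase core, and a list of 8 of its genes was examined. None passed both thresholds, against 7.74% of all genes tested in the upward and 11.7% in the downward direction. By the adjusted p-value alone, 5 of 8 had higher values, against 27%, and none had lower values, against 25.4%. Their median log2 fold change was 0.40, compared with -0.01 over all genes tested. Tceb1, which encodes Elongin C, had the highest value of the list, with 23.4 and 19.8 CPM under GSI against 46.4 and 33.3 CPM after washout. For Tceb1 the log2 fold change was 0.89 (SE 0.185, adjusted p = 0.00861 by the edgeR quasi-likelihood test). Rnf7, the RING partner of Cul5, went from 49.4 and 39.0 CPM to 76.9 and 63.7 CPM, or a log2 difference of 0.67. It also lies on chromosome 9, from 96371360 to 96379094. The scaffold Cul5 had overlapping groups, with 108.5 and 91.9 CPM under GSI and 150.1 and 104.7 CPM after washout (log2 fold change 0.35, adjusted p = 0.156 from the same test). The lowest value was that of Arih2, a ligase that works together with Cul5, at -0.09. Under total-count scaling the median of the core list was 0.20. There Tceb2, Cul2 and Rbx1 no longer passed the adjusted p-value (0.164, 0.0886 and 0.136 from edgeR). Tceb1 (0.0233) and Rnf7 (0.0447) still passed it, and Arih2 came to pass it downward (log2 fold change -0.29, adjusted p = 0.0368 from edgeR).

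Cullins are switched on by attachment of Nedd8 and switched off by its removal through the COP9 signalosome. All 22 genes listed for this cycle could be tested. Of these, 1 was upregulated past both thresholds and none was downregulated, where 7.74% and 11.7% of all genes tested were. By the adjusted p-value alone, 12 had higher values and 1 a lower value, against 27% and 25.4% of all genes. The median log2 fold change was 0.38, against -0.01 over all genes. The upregulated gene was Cops7a, a signalosome subunit, with 38.8 and 38.1 CPM under GSI against 73.3 and 81.3 CPM after washout. Its log2 fold change of 1.005 sat at the threshold, and total-count scaling lowered it to 0.81. Other signalosome subunits with values just under it were Cops3 (0.99) and Cops5 (0.95). Nedd8 itself went from 85.8 and 88.7 CPM to 134.0 and 137.2 CPM, or a log2 difference of 0.64. Dcun1d3, which helps Nedd8 onto cullins, had the lowest value at -0.86 (SE 0.142, adjusted p = 0.00365 by the edgeR quasi-likelihood test), and it passed both thresholds under total-count scaling at -1.06.

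The other SOCS-box receptors use the same kind of adaptor, and more of their values were below 0. Of 35 listed genes, 21 could be tested. No gene was upregulated past both thresholds, against 7.74% of all genes tested, and 2 were downregulated, against 11.7%. With the adjusted p-value alone, 8 had lower values, against 25.4% of all genes, and 1 had a higher value, against 27%. The median log2 fold change was -0.36, against -0.01 over all genes tested, and 17 of the 21 values were below 0, as were 50.5% of those of all genes. Wsb2, a WD-repeat SOCS-box gene, fell from 40.4 and 35.5 CPM to 15.9 and 10.2 CPM, with a log2 fold change of -1.51 (SE 0.213, adjusted p = 0.00198 by the edgeR quasi-likelihood test). Exons of Wsb2 overlap Rfc5 on the other strand. Pcmtd2, a gene of the methyltransferase-like SOCS-box proteins, fell from 75.1 and 61.7 CPM to 35.6 and 24.8 CPM, or a log2 difference of -1.17, which without washout replicate 2 was -0.93 and no longer past the threshold. Socs1, the feedback inhibitor of cytokine receptors, had 67.2 and 71.7 CPM under GSI and 45.1 and 54.7 CPM after the washout, or a log2 difference of -0.48 (adjusted p = 0.0172 from the same test). The highest value was that of Asb6, at 0.30. It had an adjusted p-value of 0.0459, but 0.125 with DESeq2. In the reported fit none of the 21 tested genes of this list had a log2 fold change above 0.30, while over the alternatives Asb6 reached 0.55.

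Genes that share the SPRY domain with the Spsb proteins, but not the SOCS box, were mixed. Of 15 listed genes, 14 could be tested, with a median log2 fold change of 0.18. Past both thresholds, 1 was higher and 1 lower, and by the adjusted p-value alone 5 were higher and 2 lower, beside the same shares of all genes as above. Ddx1, an RNA helicase gene, was upregulated from 144.5 and 137.3 CPM to 324.1 and 289.6 CPM, or a log2 difference of 1.12, which was 0.92 under total-count scaling. Bspry was downregulated, with 39 and 12 counts under GSI against 11 and 3 after washout, but the adjusted p-value of Bspry was 0.109 with DESeq2. Bspry also lost its call when GSI replicate 1 or either washout replicate was left out. Fbxo45, an F-box protein gene with a SPRY domain, had a log2 fold change of 0.54. The median of the list was -0.02 under total-count scaling, the opposite direction.

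**Figure D4:**
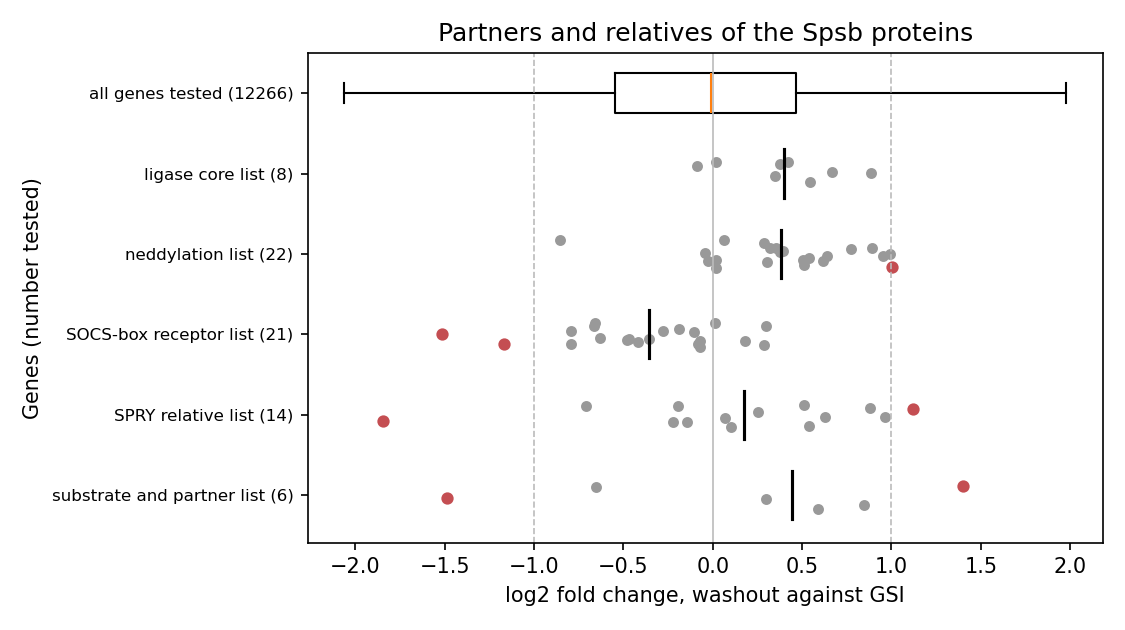
Log2 fold change of washout against GSI for each tested gene of the 5 lists (points, spread vertically for legibility), with genes past both thresholds in red, the list median as a black line, and a box plot of all 12266 genes tested (median, quartiles and whiskers at 1.5 times the quartile range). Dashed lines mark log2 fold changes of -1 and 1. The SOCS-box receptors have a median of -0.36, while the ligase core and the Nedd8 cycle have medians of 0.40 and 0.38.

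Among 10 reported targets and partners of Spsb proteins, 6 could be tested. Past both thresholds, 1 was higher and 1 lower, against 7.74% and 11.7% of all genes tested. By the adjusted p-value alone, 2 were higher and 2 lower, against 27% and 25.4%. Nos2, the target shared by Spsb1, Spsb2 and Spsb4, was low, with 3.84 and 3.91 CPM under GSI and 5.73 and 5.95 CPM after washout. The log2 fold change of Nos2 was 0.59 (SE 0.213, adjusted p = 0.0574 by the edgeR quasi-likelihood test), which did not pass the test. Tgfbr2, the type II receptor of TGF-β and a reported target of Spsb1, was downregulated from 40.5 and 39.3 CPM to 12.5 and 16.4 CPM. Its log2 fold change was -1.49 (SE 0.155, adjusted p = 0.000777 from the same test). Mb21d1, the gene of the DNA sensor cGAS and a reported target of Spsb3, was upregulated from 11.2 and 11.99 CPM to 35.2 and 25.5 CPM, or a log2 difference of 1.40 (SE 0.182, adjusted p = 0.00154). Both calls held in every alternative in which the gene was tested.

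Ephb2, a receptor tyrosine kinase gene and reported target of Spsb4, had 48.1 and 48.2 CPM under GSI and 23.9 and 38.2 CPM after washout. The log2 fold change of Ephb2, -0.65, had an adjusted p-value of 0.0428 and did not reach the fold change threshold. The washout samples lay apart, and over all alternatives the value ranged from -0.996 to -0.20. Its adjusted p-value rose above 0.05 without GSI replicate 1, GSI replicate 2 or washout replicate 1, and after the GC and length correction. Nr1d1, the circadian repressor gene reported as a target of Spsb4, had overlapping groups (6.65 and 8.29 CPM against 8.22 and 10.1 CPM). Hnrnpa1, a splicing factor gene, had a log2 fold change of 0.85 (adjusted p = 0.00609 by the edgeR quasi-likelihood test). Pawr, Met, Snai1 and Ddx4 were too low to be tested. Pawr and Met each had 1 count in all samples together, so these Spsb partners were not detectable as transcripts in Beko cells at this depth. RNA levels say nothing of the stability of these proteins, on which the ligase acts.

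The members were also compared under each alternative processing. Spsb4 had the highest value of the family wherever it had one, Spsb2 stayed above 0 throughout, and Spsb3 lay near 0 on both sides of it. The largest shifts of Spsb4 came from leaving out either GSI sample, where it has few reads.

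**Figure D5:**
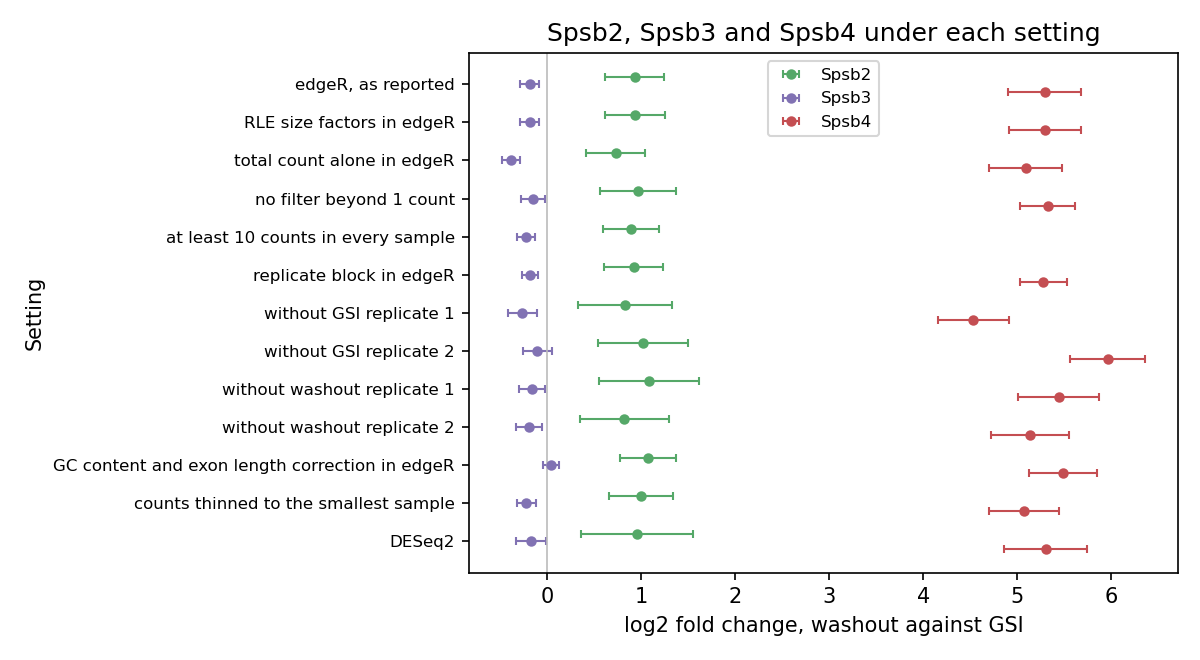
Log2 fold change (washout over GSI) and SE for Spsb2 (green), Spsb3 (purple) and Spsb4 (red) under the reported fit and each alternative. Spsb4 stays between 4.53 and 5.96, Spsb2 between 0.73 and 1.09, and Spsb3 between -0.38 and 0.05; Spsb4 has no value where at least 10 counts were required in every sample.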

How the data were processed

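RNA-Seq of total RNA depleted of ribosomal RNA (stranded kit) was compared between 2 GSI and 2 washout samples of Beko cells, grouped by the labels. The authors trimmed reads with TrimGalore 0.6.5, aligned them to mm9 with HISAT2 2.2.1 (1 alignment per read, introns up to 3000 bases) and deposited raw counts per gene symbol from summarizeOverlaps, with no normalization. The submitters' processing notes also name DESeq2 1.24.0. Every column was used.

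The groups were tested in edgeR 4.0.16 under R 4.3.3 (filterByExpr, TMM factors of 0.930 to 1.08, quasi-likelihood test without covariates, Benjamini-Hochberg adjustment over 12266 genes). For a call, the adjusted p-value had to be under 0.05 and the absolute log2 fold change over 1. The SE of a log2 fold change was its size over the root of the F statistic. The biological coefficient of variation was 0.121. On simulated counts, genes were called by the adjusted p-value alone, without the fold change threshold. There, 177 of 200 changed genes were recovered with 26 false calls among 12163 genes tested. As a share of all calls made, the false ones exceeded the 0.05 that the adjusted p-value is meant to hold. The simulation changed fewer genes than the 950 higher and 1437 lower called in the data. Replicates differed by more than sampling noise (chi-square over degrees of freedom, GSI 17.2 and washout 27.7).

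Positions, exon lengths and GC content came from GENCODE vM1 on mm9, where 20641 of 24391 symbols matched 1 gene. Coding sequences were aligned globally with Biopython 1.88. Neighbors were the nearest 2 protein-coding genes of the count table on each side, with genes that overlap the member left out. Members and lists were chosen with earlier results of these data known. Named were the members, each list's genes past both thresholds or its highest and lowest, the neighbors, the 5 nearest profiles and 4 Notch targets. Further genes of the lists (Rnf7, Cul5, Nedd8, Cops3, Cops5, Socs1, Fbxo45 and the Spsb targets) and the overlapping genes Tpi1 and Eme2 were named for their role or position after their values were seen. Alternatives were DESeq2 1.42.0, RLE or total-count scaling, other filters, a replicate block, thinning to the smallest sample, a GC and length correction (10962 genes, 89.4% of those tested) and leaving out each sample.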

Additional observations from a re-analysis of the deposited data

How the results depend on the processing

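Of 144 recomputed numbers of called genes, 120 stayed within 1.5 times the reported number, among them numbers that stayed at 0. The number of higher genes of the Nedd8 cycle moved further in 8 alternatives and stayed within this range in 4. Of 60 list medians, 44 moved by no more than the SD of the list's median difference over all pairs of a washout and a GSI sample. Of the fold changes of Spsb2 and Spsb3, 6 no longer passed the adjusted p-value, 1 came to pass and 1 reversed. The log2 fold change of Spsb4, which has no test, ranged from 4.53 to 5.96 in every alternative that gave it a value, all but the filter of at least 10 counts in every sample. For Spsb2, the adjusted p-value rose above 0.05 under total-count scaling (log2 fold change 0.73) and DESeq2 (0.96), and with 1 sample left out (0.83 to 1.09), where the lone sample of a group is assumed to vary like the others. After the GC and length correction Spsb2 had 1.07 and passed both thresholds. For Spsb3, the value was -0.38 and past the adjusted p-value under total-count scaling, and 0.048, the opposite direction, after the GC and length correction.

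Total-count scaling moved the median of all genes by -0.199 and left 587 genes higher and 1961 lower, in place of 950 and 1437. Under it the medians were 0.20 for the ligase core, 0.18 for the Nedd8 cycle, -0.56 for the SOCS-box receptors, -0.022 for the SPRY relatives and 0.24 for the targets, and the Nedd8 cycle had 0 higher and 1 lower gene and the SPRY relatives 0 higher. The count of higher genes of the Nedd8 cycle was 2 without the filter, 0 with at least 10 counts in every sample, 0 with the replicate block and 2 with DESeq2. For the SOCS-box receptors the median was -0.44 without the filter and -0.56 with DESeq2, both over 31 genes. For the SPRY relatives, no filter gave 2 higher genes, at least 10 counts gave 0 lower genes and a median of 0.34, the GC and length correction a median of 0.33, and DESeq2 0 lower genes and a median of 0.27. The GC and length correction left 0 higher genes among 5 targets, since Mb21d1 had no annotation match and was not in that fit.

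With 1 sample left out, the ligase core had 0 to 1 higher genes and a median of 0.34 to 0.56, the Nedd8 cycle 1 to 2 higher genes and 0.35 to 0.50, and the SOCS-box receptors 1 to 3 lower genes and -0.48 to -0.30. The SPRY relatives had 1 to 2 higher and 0 to 1 lower genes and a median of 0.19 to 0.37, and the targets 1 to 2 higher genes and 0.17 to 0.54.

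The samples share replicate numbers, but no label says that a number marks a shared culture or day. The deviations of same-numbered samples correlated at 0.497 across genes. With the number as a replicate block, 981 genes were higher and 1576 lower, and the adjusted p-value of Spsb2 was 0.0115. The size of the Spsb4 fold rests on 20 reads under GSI.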
